A study of Mus musculus with 4 samples.

Results

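Strong distal RAD21 sites, those that lay away from promoters and were heavily occupied both in mouse embryonic stem cells (ESCs) and in embryoid bodies (EBs), numbered 979 of the 15085 RAD21 summits listed on the autosomes of ESCs, or 6.49%. They were chosen by read counts as well as by position. The ESC summit had to lie in an intron or between genes, 1 to 200 kb from the nearest transcription start of a protein-coding gene (mouse build mm9, GENCODE vM1), with an EB summit within 250 bp. At least 35 reads of the ESC RAD21 library and 25 of the EB RAD21 library had to fall within 250 bp of it, which is 2.55 and 3.23 RPM (reads per 1000000 autosomal reads). Of 12804 distal ESC summits, 6182 had an EB summit within reach, 1848 of these met the ESC minimum and 2029 the EB minimum, so the strong sites were 15.8% of the shared distal ones.

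The cells were R1/E mouse ESCs at day 0 of differentiation and EBs, aggregates of differentiating cells, grown from them to day 12. Every library came from cells with an extra copy of Rad21 joined to GFP, carried by a stably integrated bacterial artificial chromosome beside the endogenous gene, and only the tagged protein was precipitated, with a goat antibody against eGFP. Each cell type had 1 RAD21 library and 1 control library made with goat IgG, which the labels also describe as input DNA. The labels give the medium with LIF for every library and no other for the EBs. The libraries held 14133430 ESC RAD21, 8006161 EB RAD21, 13002597 ESC IgG and 7067703 EB IgG reads. With 1 library per group there were no replicates and no test between the cell types was possible, and all intervals are at the 95% level and cover counting error, or the number of sites, only.

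RAD21 is the subunit that closes the ring of cohesin, the complex that holds sister chromatids together and extrudes DNA loops. CTCF is a zinc finger protein that binds a long, oriented DNA motif and stops moving cohesin, and loops are known to form mainly between CTCF sites whose motifs point at each other. Cohesin at distal CTCF sites is known to be shared among cell types more often than cohesin at enhancers.

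The DNA under the sites of highest and most uneven occupancy is shown to place the motif on which most of them sat. Each line gives the gene with the nearest start, the mm9 position, the strand and 60 bases from 5′ to 3′ along the motif, with the 20 bases of the best CTCF match in capitals. The first 6 are the matches among the 8 sites whose smaller RPM value of both cell types was largest.
Grb10, chr11:11873586-11873645, minus strand: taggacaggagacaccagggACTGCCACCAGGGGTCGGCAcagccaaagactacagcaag
Ddc, chr11:11720384-11720443, plus strand: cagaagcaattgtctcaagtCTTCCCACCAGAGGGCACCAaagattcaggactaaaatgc
Etv6, chr6:133910874-133910933, plus strand: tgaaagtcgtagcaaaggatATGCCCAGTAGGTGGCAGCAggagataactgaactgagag
1810063B07Rik, chr14:20886724-20886783, minus strand: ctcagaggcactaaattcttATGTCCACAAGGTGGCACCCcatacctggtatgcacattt
Trmt12, chr15:58701752-58701811, minus strand: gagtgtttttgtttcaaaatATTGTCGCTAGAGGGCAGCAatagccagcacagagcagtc
Tab2, chr10:7603482-7603541, plus strand: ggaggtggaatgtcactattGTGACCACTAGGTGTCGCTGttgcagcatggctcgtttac

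The next 10 are the sites with the highest and then the lowest ratio of EB to ESC RAD21 reads.
D6Mm5e, chr6:82946800-82946859, plus strand: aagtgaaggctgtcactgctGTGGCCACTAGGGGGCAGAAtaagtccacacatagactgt
Fggy, chr4:95538076-95538135, minus strand: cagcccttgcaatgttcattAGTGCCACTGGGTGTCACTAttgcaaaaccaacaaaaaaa
0610012H03Rik, chr2:105070650-105070709, minus strand: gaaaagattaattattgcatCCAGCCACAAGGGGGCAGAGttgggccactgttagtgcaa
Myo1d, chr11:80484130-80484189, minus strand: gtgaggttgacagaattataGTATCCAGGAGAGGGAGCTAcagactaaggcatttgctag
Rptn, chr3:93165992-93166051, plus strand: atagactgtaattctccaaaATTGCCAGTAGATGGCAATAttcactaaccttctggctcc
Abt1, chr13:23493657-23493716, minus strand: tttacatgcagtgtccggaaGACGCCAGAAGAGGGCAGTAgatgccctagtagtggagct
Lif, chr11:4158954-4159013, plus strand: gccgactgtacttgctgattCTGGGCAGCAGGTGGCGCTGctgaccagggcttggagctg
4933407P14Rik, chr11:104057319-104057378, minus strand: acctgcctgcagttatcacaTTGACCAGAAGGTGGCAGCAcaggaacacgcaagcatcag
Tcea2, chr2:181413672-181413731, minus strand: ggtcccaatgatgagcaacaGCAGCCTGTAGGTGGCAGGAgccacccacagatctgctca
Sparc, chr11:55200106-55200165, minus strand: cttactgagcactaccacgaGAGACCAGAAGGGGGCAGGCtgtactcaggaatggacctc

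The pair below is made up of neighbouring strong sites whose matches pointed at each other, which is why both are shown.
Enpp6, chr8:48101791-48101850, plus strand: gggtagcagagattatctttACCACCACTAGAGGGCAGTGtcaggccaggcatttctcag
Stox2, chr8:48457163-48457222, minus strand: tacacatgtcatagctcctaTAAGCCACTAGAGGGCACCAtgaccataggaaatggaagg

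For contrast, these 2 distal sites had at least 35 ESC reads but no EB summit, and were picked for the number of genome copies of their match.
Prickle2, chr6:92509425-92509484, minus strand: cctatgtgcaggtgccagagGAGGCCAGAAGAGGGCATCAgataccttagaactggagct
Spnb2, chr11:30138107-30138166, plus strand: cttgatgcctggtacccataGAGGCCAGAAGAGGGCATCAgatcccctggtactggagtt
The 20 bases in capitals of the last 2 sequences were identical and occurred 1007 times on the autosomes. The matches of strong sites shown occurred once, except those nearest Abt1 (2 copies) and Sparc (3 copies).

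The median strong site had 44 ESC RAD21 reads (lowest 35, highest 100) and 32 EB RAD21 reads (25 to 83). In the control libraries it had 4 ESC IgG reads (0 to 14) and 2 EB IgG reads (0 to 11). Every one of the 979 sites had a higher RAD21 than IgG value in RPM in both cell types. Summed over the sites, RAD21 exceeded IgG 10.6-fold in ESCs (10.2 to 10.9) and 11.5-fold in EBs (11.04 to 11.95). Both RAD21 counts entered the choice of sites and the peaks had been called against IgG, so these levels describe the sites and test nothing.

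**Figure D1:**
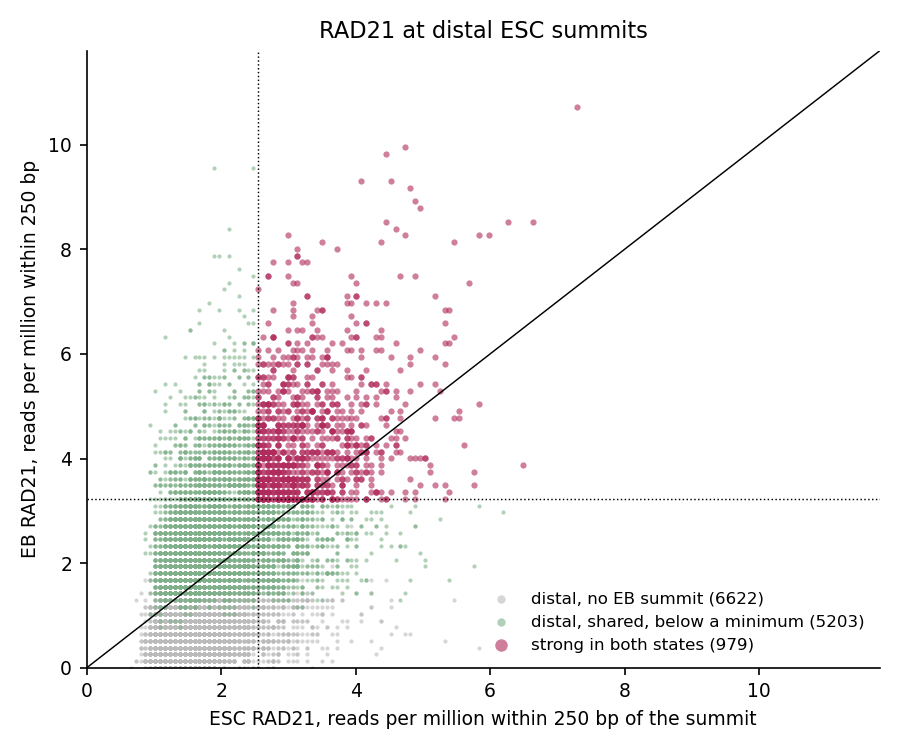
RAD21 RPM within 250 bp of each distal ESC summit, ESC on the x axis and EB on the y axis, 1 point per site and 1 library per axis. Dotted lines mark the minimums of 2.55 and 3.23 RPM and the solid line equal values. The strong sites fill the upper right. A log2 ratio of EB to ESC above 0, with 1 read added, was found at 861 of these 979 sites (87.9%). It was found at 72.5% of weaker shared sites and 39.9% of all autosomal ESC summits. The EB minimum, higher in RPM than the ESC one, favours such ratios, and nothing was read from these shares. The sites without an EB summit lie lower, with a median of 5 EB reads.

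The site with the most reads lay in an intron of Grb10, an imprinted gene for an adaptor protein that dampens insulin signalling, on chromosome 11 (peak chr11:11871910-11874076). It held 100 reads in ESC RAD21, 83 in EB RAD21, 9 in ESC IgG and 5 in EB IgG. The next lay on the same chromosome in an intron of Ddc, the gene for dopa decarboxylase, which is imprinted in the heart (chr11:11719784-11721277), with 91, 66, 10 and 1 reads in the same order. Their RPM values were 7.29 and 6.64 in ESCs and 10.7 and 8.53 in EBs, so both were higher in EBs on this scale, although the interval of the ratio held 1 at Ddc (0.922 to 1.78) and not at Grb10 (1.09 to 1.99).

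The third lay between genes, 74763 bp from the start of Etv6, which encodes a transcriptional repressor of the ETS family (chr6:133910444-133911545), with 86 ESC RAD21, 66 EB RAD21, 5 ESC IgG and 3 EB IgG reads. The 9 that followed held 73 to 82 ESC RAD21 and 48 to 64 EB RAD21 reads. Their nearest starts were those of 1810063B07Rik, Tmem45a, Trmt12, Tab2, Acyp2, 4930549C01Rik, Rbm34, Ppp6c and Ramp3, and IgG counts were 3 to 7 in ESCs and 2 to 8 in EBs. Tab2 encodes an adaptor of the kinase TAK1, and Ppp6c a catalytic subunit of a protein phosphatase. Of these 12 sites 9 were intergenic and 3 intronic. Those at Grb10, Ddc, Acyp2 and Ramp3 lay on chromosome 11, Etv6 on 6 and Rbm34 on 8. The ESC IgG density of these chromosomes was 1.38, 1.19 and 1.21 times the autosomal mean. On chromosome 14, which held the site near 1810063B07Rik, it was 0.883. The order of the sites was not scaled for this. The sites nearest Tmem45a and Acyp2 had no CTCF match at either threshold used below, although they held 80 and 75 ESC RAD21 reads.

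**Figure D2:**
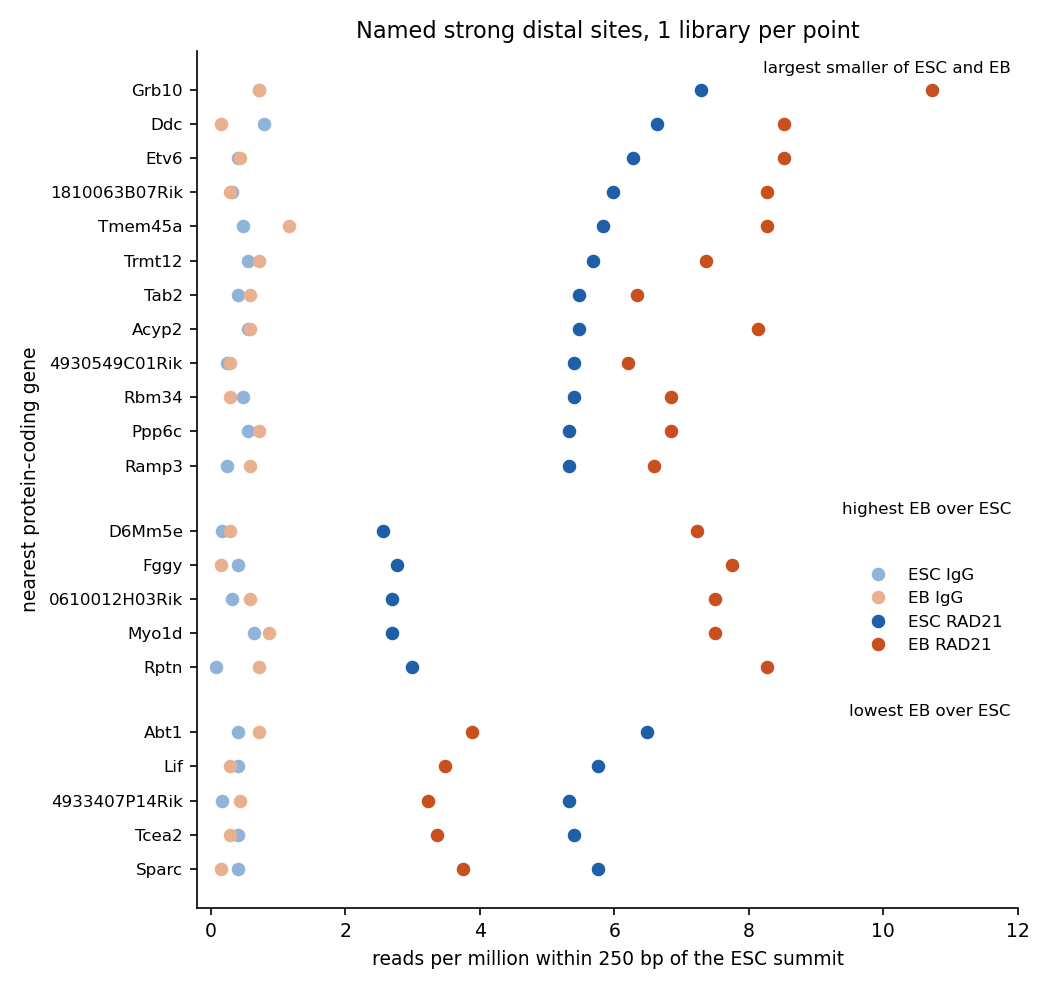
RPM in the 4 libraries at the 12 sites with the largest smaller RAD21 value and at the 5 sites each with the highest and lowest EB to ESC ratio, named by the gene with the nearest start. Each point is 1 library, without replicates. All RAD21 points lie at 2.55 RPM or more, to the right of all IgG points, which hold at most 10 reads.

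Scaled by autosomal reads, the strong sites carried more RAD21 reads in EBs than in ESCs, 1.34-fold in sum (1.32 to 1.36). IgG reads at the same sites were also more frequent in EBs, 1.24-fold (1.176 to 1.298), and the part of this in the RAD21 ratio was not tested. The median log2 ratio, with 1 read added to each count, was 0.41 (0.38 to 0.44), against 0.38 at the 5203 shared distal sites that missed a read minimum (weaker shared), -1.11 at the 6622 distal sites with no EB summit within 250 bp (ESC-only) and -0.27 over all autosomal ESC summits. In grid windows, taken every 50000 bp and at least 2000 bp from any summit, it was 0.24 at a median of 2 ESC and 1 EB reads, while the log2 ratio of the summed reads was -0.02. At 737 of the 979 sites (75.3%) the interval of the site's own ratio held 1, so most single sites could not be told from an equal level at this depth. It lay above 1 at 238 sites (24.3%), against 20.1% of weaker shared sites and 10.1% of all autosomal ESC summits. It lay below 1 at 4 sites (0.409%), against 1.94% and 22.6%. The EB minimum, higher in RPM than the ESC one, favours high ratios among the strong sites, and nothing was read from these counts. At least 2-fold more in EBs was seen at 63 sites (6.44%), against 6.77% of all autosomal ESC summits. No strong site was at least 2-fold lower in EBs, against 28.8% of all autosomal ESC summits, a difference that the EB minimum of 25 reads fixes in large part.

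At the upper end, the site in an intron of D6Mm5e (chr6:82946344-82947449) held 35 ESC RAD21, 56 EB RAD21, 2 ESC IgG and 2 EB IgG reads, a ratio of 2.83 (1.83 to 4.46). The sites in introns of Fggy, 0610012H03Rik and Myo1d, the last a gene for an unconventional myosin, and one near Rptn had ratios of 2.77 to 2.80. They held 37 to 41 ESC and 58 to 64 EB RAD21 reads, so the EB value was above the ESC value at each.

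At the lower end, the site nearest Abt1 (chr13:23492773-23494346) held 89 ESC RAD21 and 30 EB RAD21 reads with 5 reads in each IgG library, a ratio of 0.597 (0.381 to 0.912). The site in an intron of Lif, the cytokine added to the medium to keep mouse ESCs undifferentiated (chr11:4158295-4159824), held 79 ESC RAD21, 27 EB RAD21, 5 ESC IgG and 2 EB IgG reads, a ratio of 0.606 (0.376 to 0.948). It was the only one of the sites shown above whose summit lay on the 5′ side of its match, by 82.5 bp. The sites near 4933407P14Rik, Tcea2 and Sparc, the last a gene for a secreted matrix glycoprotein, had ratios of 0.607, 0.623 and 0.650, and the interval of the last held 1 (0.410 to 1.01). These 10 sites were picked for their ratios. Those at Lif, 4933407P14Rik and Sparc lay on chromosome 11, as did the one in Myo1d at the upper end. As a share of autosomal reads, that chromosome had 1.14 times as many IgG reads in ESCs as in EBs, and 1.13 times as many RAD21 reads. The part of this in the ratios was not tested.

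The ratio went along with base composition. Strong sites with under 36% GC within 250 bp of the summit had a median log2 ratio of 0.61 (68 sites) and those with 48% or more of 0.27 (182 sites). In grid windows the log2 ratio of summed RAD21 reads, EB against ESC, went from 0.48 to -0.55 over the same GC classes, and that of the IgG reads from 0.41 to -0.53. Across the 979 sites Pearson's r between GC content and the log2 ratio was -0.31 and Spearman's rho -0.29. All points come from the same pair of libraries. The part of base composition in the ratios was not tested.

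The sequence under the sites did not enter their choice. A CTCF weight matrix was learned on the odd and on the even chromosomes and scored on the others, and its most frequent bases spelled GTGGCCACAAGAGGGCACCA and GTGGCCACCAGAGGGCACTA, respectively. The matrix was learned from ESC summits only, the ESC-only sites among them, and not from EB summits. The part of this in the shares below was not tested. A match had to lie within 150 bp of the summit. At the threshold passed by 1e-04 of positions in grid windows, 896 of 979 strong sites had a match (91.5%, 89.6 to 93.2), against 89.5% of weaker shared distal, 81.6% of ESC-only distal sites, 60.8% of the 2811 distal EB summits with no ESC summit within 250 bp (EB-only) and 2.76% of grid windows. The difference from the weaker shared sites was 2.04 percentage points (-0.04 to 3.84), which held 0, and from the ESC-only sites 9.88 points (7.77 to 11.7).

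At the stricter threshold of 1e-05 the order changed. A match was found at 312 strong sites (31.9%, 29.0 to 34.9), at 31.0% of weaker shared, 40.2% of ESC-only and 15.7% of EB-only distal sites, and in 0.276% of grid windows. The strong sites differed from the weaker shared ones by 0.887 points (-2.23 to 4.12) and from the ESC-only ones by -8.28 points (-11.4 to -5.08). Matches to a fixed CTCF consensus were at 32.3% of strong, 28.5% of weaker shared and 16.8% of ESC-only sites, so the strong sites were above both by this measure, by 3.74 (0.62 to 6.97) and 15.5 points (12.5 to 18.6).

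The strong sites also differed from the ESC-only ones in how often their match recurred in the genome, a count added after the data had been seen. Of the 312 matches at strong sites, 4 (1.28%) were 20-base words with 10 or more copies on the autosomes, against 35.3% of the 2659 matches at ESC-only sites and 3.85% of the 1612 at weaker shared sites. A match at 1e-04 whose 20 bases occurred once was at 85.8% of strong sites (83.5 to 87.9), 80.3% of weaker shared, 51.4% of ESC-only and 54.3% of EB-only distal sites. The strong sites were higher by 5.52 points (2.97 to 7.85), 34.4 points (31.8 to 36.8) and 31.6 points (28.6 to 34.3), respectively. The EB-only sites with at least 25 EB reads were nearer, at 73.2%, a difference of 12.6 points (6.99 to 18.8). The 428 ESC-only distal sites that themselves had at least 35 ESC reads had such a match at 56.3%, 29.5 points below the strong sites (24.3 to 34.7), so this gap was also present at like ESC read counts. Without regard to copies these 428 sites had a match at 1e-04 at 90.2%, which differed from the strong sites by 1.34 points (-1.79 to 4.89), and at 1e-05 with fewer than 10 copies they were at 32.5% against 31.5% (-1.02 points, -6.40 to 4.18).

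**Figure D3:**
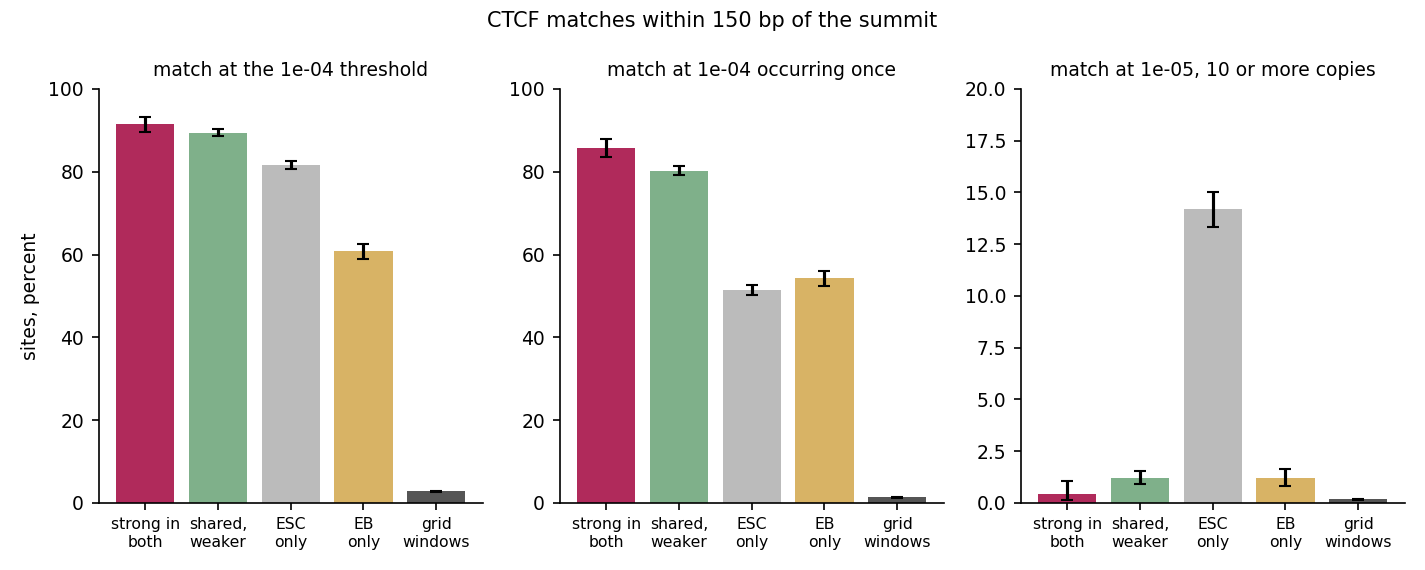
Percent of sites with a CTCF match within 150 bp of the summit for strong, weaker shared, ESC-only and EB-only distal sites and grid windows, with exact 95% intervals over sites. The panels show any match at 1e-04, a match at 1e-04 whose 20 bases occur once, and a match at 1e-05 with 10 or more copies, the last on an axis that ends at 20%. The strong sites are at 91.5%, 85.8% and 0.409%, and the ESC-only sites at 81.6%, 51.4% and 14.2%.

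Repeated words were also counted over the whole window around the summit, the match included, at sites with and without a match. Of the strong sites 12.3% (10.3 to 14.5) had any sampled 20-base word with 10 or more copies within 150 bp of the summit. It was 19.2% of weaker shared sites, 45.5% of ESC-only sites, 47.9% of the ESC-only sites with at least 35 ESC reads and 49.0% of grid windows. The EB-only sites with at least 25 EB reads were at 10.8%, which did not differ from the strong sites beyond the interval (1.46 points, -3.39 to 5.40). How the placing of 35-base reads in copied sequence bears on these shares was not tested.

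Within the match the strong sites favoured another spelling. Thymine stood at position 13 of the match, counted from 1 at its 5′ end, in 54.8% of the 896 matches at strong sites (51.5 to 58.1), 46.6% at weaker shared, 22.3% at ESC-only sites and 45.8% of those at EB-only ones. Among matches that occurred once the shares were 55.2%, 47.5%, 30.5% and 47.1%, and the strong sites were higher by 7.79 (4.08 to 11.4), 24.8 (21.0 to 28.4) and 8.09 points (3.88 to 12.3). In the same single-copy matches cytosine at position 8 was at 65.6% of strong and 51.1% of ESC-only sites, a difference of 14.5 points (10.8 to 18.1), and did not differ beyond the interval from weaker shared sites (0.261 points, -3.31 to 3.72). From under 40% GC to 48% GC and more, thymine stood at position 13 in 65.3%, 55.7%, 52.4% and 46.8% of the single-copy matches of strong sites, in 55.0%, 49.5%, 47.2% and 41.2% at weaker shared and in 33.9%, 29.7%, 31.4% and 29.6% at ESC-only sites. The share was thus highest at the strong sites in each of these GC classes. Their interval overlapped that of the weaker shared sites in every class, and that of the ESC-only sites in none. These positions were picked after the values had been seen. The matches at 38.5% of strong and 38.3% of ESC-only sites held a CpG, the dinucleotide at which DNA is methylated, with a difference of 0.214 points (-3.18 to 3.69).

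RAD21 lay to one side of the motif. With the match read as in the lines above (read on the other strand, the sides change places), the ESC summit was a median of 49.5 bp to the 3′ side of its centre (43.5 to 53.5, 312 sites), and on that side at 278 sites (89.1%, 85.1 to 92.3). The EB summit was at 49.0 bp (44.5 to 53.5) and on the 3′ side at 82.4%. The side was shared by 81.9% of weaker shared and 79.7% of ESC-only sites, lower by 7.15 (2.82 to 10.7) and 9.41 points (5.20 to 12.8). The ESC-only sites with at least 35 ESC reads were at 87.9%, a difference of 1.16 points (-4.33 to 7.21) that held 0. ESC and EB summits of strong sites were a median of 28 bp apart, and 706 of 979 pairs lay within 50 bp.

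The highest 20 bp bin was 60 to 80 bp on the 3′ side in ESCs, with 0.364 RPM per site, and 40 to 60 bp in EBs, with 0.441 RPM per site, 23.0 and 23.4 times the level beyond 800 bp. Both RAD21 libraries had further maxima 120 to 140 bp on the 5′ side and 320 to 340 bp on both sides. On the 3′ side EBs had a maximum at 120 to 140 bp, with 0.216 RPM per site, where ESCs had only a shoulder of 0.176. The IgG libraries rose too, to 0.0313 RPM per site in ESCs 120 to 140 bp and 0.0370 in EBs 140 to 160 bp on the 5′ side, against 0.00774 and 0.00687 beyond 800 bp. Within 100 bp of the match ESC IgG fell to 0.00509 RPM per site (20 reads), 20 to 40 bp on the 5′ side. It was lower still, at 0.00356 (14 reads), 260 to 280 bp on the 3′ side. EB IgG within 100 bp of the match reached 0.0185 RPM per site (40 reads) 40 to 60 bp on the 3′ side, above its level beyond 800 bp. These bins held few reads, and the difference between the IgG libraries was not tested. Nucleosomes are known to be arrayed around CTCF sites, and nothing here measured them directly. Within 200 bp of the centre 66.0% of ESC RAD21 reads (65.2 to 66.8) were on the 3′ side, and 50.5% of ESC IgG reads (47.5 to 53.5).

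**Figure D4:**
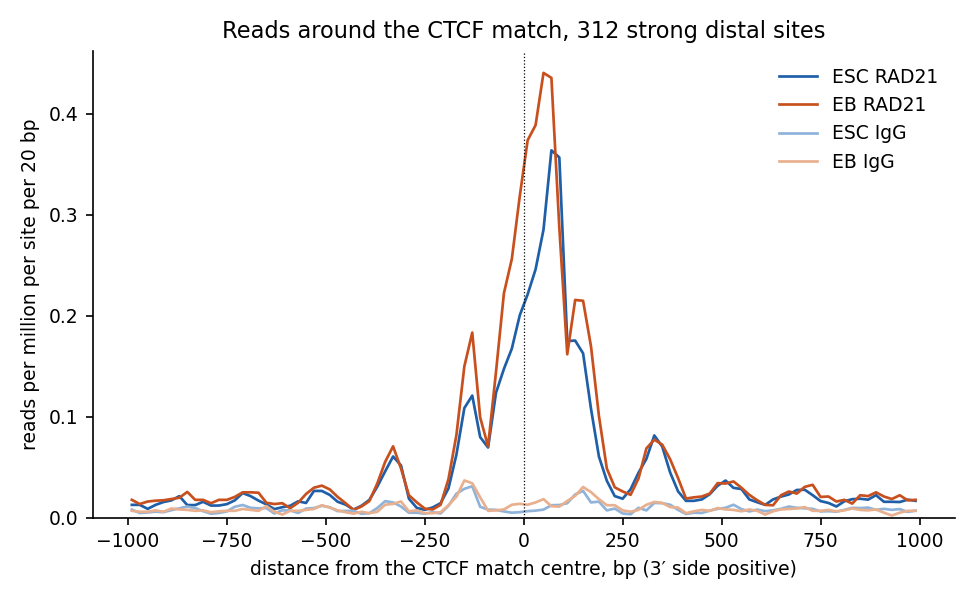
RPM per site in 20 bp bins against the distance from the centre of the CTCF match, 3′ side positive, summed over the 312 strong sites with a match at 1e-05, 1 line per library. Both RAD21 lines peak at 40 to 80 bp on the 3′ side, with smaller maxima 320 to 340 bp away on both sides and 120 to 140 bp away on the 5′ side. The IgG lines stay at or below 0.0370 RPM.

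Neighbouring strong sites were a median of 1190 kb apart and never closer than 3290 bp, so no read was counted at more than 1 of them. Of 960 neighbouring pairs on a chromosome, 279 were at most 500 kb apart, and in 34 of these both sites had a match at 1e-05. The matches pointed at each other (convergent) in 9 pairs (26.5%, 12.9 to 44.4), the same way in 16 and away from each other in 9. At 1e-04 there were 242 pairs, with 72 convergent (29.8%, 24.1 to 35.9), 102 in the same direction and 68 divergent. Of weaker shared sites 25.6% of such pairs were convergent, 4.19 points lower (-1.44 to 10.4), an interval that held 0. The closest pairs were seldom convergent. Among pairs at most 50 kb apart, 2 of 29 strong (6.90%, 0.846 to 22.8) and 60 of 679 weaker shared pairs (8.84%, 6.81 to 11.2) were convergent, and 16 and 296 divergent.

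The convergent pair shown above had the largest smaller value among those with matches at 1e-05. Its members lay 355 kb apart on chromosome 8. The left one, in an intron of Enpp6, a gene for a choline-specific phosphodiesterase, held 56 ESC RAD21, 36 EB RAD21, 1 ESC IgG and 1 EB IgG reads. The right one, in an intron of 4930448N21Rik and nearest to the start of Stox2, held 63, 35, 2 and 3 reads in the same order. RAD21 was thus above IgG at both ends in each cell type. No contact between them was measured.

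Strong sites were not spread evenly over the chromosomes. Chromosome 11 held 137 of them, 27.5% of its 498 shared distal sites (23.6 to 31.7), and chromosomes 6 and 8 held 81 (19.3%) and 63 (19.5%), against 9.22% to 18.8% on the other 16 autosomes. These 3 chromosomes were also those with the highest ratio of ESC to EB IgG reads, 1.14 to 1.23 against 0.911 to 1.04 elsewhere, and the IgG read density of chromosome 11 was 1.38 times the autosomal mean in ESCs and 1.20 times in EBs. Divided by the IgG density of their chromosome, the reads put 42 strong sites on chromosome 11, 8.43% of its shared distal sites (6.15 to 11.2). The 3 chromosomes together then had 10.9% (9.21 to 12.8) and the others 14.9% (13.9 to 15.9), where the counts as read gave 22.7% and 14.1%. The median log2 ratio of strong sites was 0.31 on these 3 chromosomes and 0.44 on the others. The excess on these chromosomes was not present in counts scaled this way, an alternative added after the data had been seen. The scaled shares were still uneven, and highest on chromosomes 14 (22.8%) and 7 (21.8%). The ESC IgG densities of these were 0.883 and 0.855 times the autosomal mean. The part of IgG density in the unevenness was not tested.

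**Figure D5:**
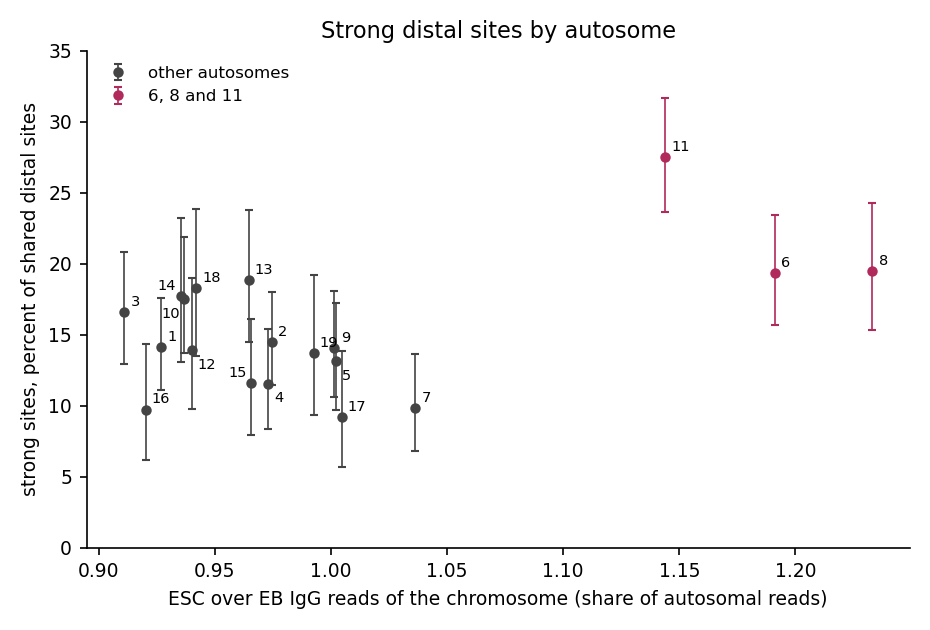
Strong sites as a percent of the shared distal sites of each autosome (y axis, exact 95% intervals over sites) against the ratio of ESC to EB IgG reads of that chromosome, each as a share of autosomal reads (x axis). Numbers are chromosomes. Chromosomes 6, 8 and 11 lie apart at 1.14 to 1.23, with 19.3% to 27.5%.

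By position, 622 strong sites lay between genes and 357 in introns (36.5%, 33.4 to 39.6), fewer in introns than the weaker shared (41.5%, difference -4.99 points, -8.24 to -1.65) and the ESC-only sites (difference -7.54 points, -10.7 to -4.25). The median distance to the nearest protein-coding start was 21568 bp (19023 to 23934), against 19886 bp at weaker shared and 18892 bp at ESC-only sites. Median GC content was 43.9%, against 44.9% and 46.3%, and 41.7% in grid windows. The sites were nearest to 927 genes, of which 877 had 1 site and 48 had 2. Only Ankrd55 and Galnt7 had 3 each, with 35 to 47 and 39 to 70 ESC RAD21 reads.

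Gene lists were read against the weaker shared sites. Of the 31 genes listed for the pluripotency network, 2 were nearest to a strong site, Nanog and Zfp281, which were 0.204% of strong sites (0.0248 to 0.736) against 0.115% of weaker shared sites and 0.469% of all distal ESC summits, both within the interval. The site 37843 bp from the start of Nanog, the homeodomain factor of the ESC network, held 57 ESC RAD21, 33 EB RAD21, 8 ESC IgG and 0 EB IgG reads. Its ratio of EB to ESC was 1.03, with an interval that held 1 (0.647 to 1.60). Among early lineage transcription factors, a strong site in an intron of Mef2c, a regulator of muscle and heart genes, held 36 ESC RAD21, 42 EB RAD21, 6 ESC IgG and 3 EB IgG reads, a ratio of 2.07 (1.29 to 3.32).

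Signalling ligands had 6 sites, 0.613% of strong sites (0.225 to 1.33), against 0.365% of weaker shared and 0.453% of all distal sites. Hox genes had 1, or 0.102% (0.00259 to 0.568), against 0.0384% and 0.0781%, so the intervals held the other shares for both lists. Of 53 Wnt, Fgf, Nodal and Bmp ligand genes, Fgf1, Fgf12, Fgf20, Wnt3 and Wnt8a were nearest to a strong site, Fgf1 to 2 sites in an intron of its neighbour Arhgap26. The site nearest Wnt3, a ligand needed for the primitive streak, held 60 ESC RAD21, 47 EB RAD21, 7 ESC IgG and 1 EB IgG reads. Of 39 Hox genes only Hoxa13, at one end of its cluster, was nearest to a strong site, 3570 bp from its start, with 50 ESC RAD21, 44 EB RAD21 and 2 reads in each IgG library.

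Imprinted genes, expressed from the allele of one parent, had 6 sites at Ddc, Grb10, Magel2, Plagl1, Ppp1r9a and Sfmbt2, of 46 genes listed. These were 0.613% of the strong sites (0.225 to 1.33), against 0.404% of weaker shared sites (0.25 to 0.62), and the intervals overlapped. The site nearest Plagl1 held 61 ESC RAD21, 33 EB RAD21, 7 ESC IgG and 4 EB IgG reads, so its EB level in RPM was close to that in ESCs (ratio 0.959, 0.608 to 1.49). Of 75 genes of cytosolic ribosomal proteins 4 had a strong site, 0.409% of strong sites (0.111 to 1.04) against 0.327% of weaker shared sites. Of 1081 olfactory receptor genes 6 had one, 0.613% (0.225 to 1.33) against 0.826%, and both intervals held the weaker share. The site nearest Rpl5, in an intron of Fam69a, held 61 ESC RAD21, 76 EB RAD21, 3 ESC IgG and 7 EB IgG reads, a ratio of 2.21 (1.56 to 3.14). The ratios of the sites nearest Rps29 and Rpl38 had intervals that held 1 (0.765 to 2.07 and 0.812 to 2.19). No strong site was nearest to any of 22 genes for cohesin, its regulators and CTCF or of 24 clustered protocadherins, where weaker shared sites numbered 3 and 2, and the exact interval of 0 of 979 reaches 0.376%.

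The 83 strong sites without a match at 1e-04 (8.48%) were described in the same measures. Their medians were 44 ESC RAD21, 30 EB RAD21, 3 ESC IgG and 2 EB IgG reads and 44.3% GC, and their median log2 ratio was 0.31 (0.21 to 0.39) against 0.39 (0.33 to 0.42) at the 312 sites with a match at 1e-05 and 0.44 (0.41 to 0.47) at the 584 sites with a match at 1e-04 only. The ratio is made of both RAD21 counts, which entered the choice of sites, and all sites come from the same pair of libraries. Nothing was therefore read from the differences between these intervals. Among the strong sites the best match score and the smaller RPM value were hardly related (Pearson's r 0.02, Spearman's rho 0.03, 979 sites). In 4 classes of like size, from the lowest to the highest by that RPM value, 91.0%, 93.1%, 91.8% and 90.2% had a match at 1e-04. The rule cut on the RAD21 counts, and all classes but the highest lay between 2.55 and 3.62 RPM. This narrow range limits any relation that could be seen, and nothing was read from it for weaker sites.

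Patterns of other factors, searched on both strands within 150 bp of the summit, were near their level in grid windows. The YY1 pattern AAGATGG was at 9.30% of strong sites (7.55 to 11.3) and 7.55% of grid windows. The Oct pattern ATGCAAAT was at 2.25% (1.41 to 3.38) against 2.64%, the Klf pattern GGGTGTGG at 1.53% (0.860 to 2.51) against 1.85%, and the Esrrb pattern TCAAGGTCA at 0.613% (0.225 to 1.33) against 0.681%. The pattern of the GATA factors, spelled AGATAAG, was at 3.88% of strong sites and 4.42% of grid windows. That of the Fox factors, TGTTTAC, was at 4.80% against 4.56%. The E-box CACGTG was at 3.06% against 3.03%, and the AP-1 pattern TGAGTCA at 4.70% against 4.80%. The interval of the strong sites held the grid share for all 8 patterns, and a match of letters is not a bound factor.

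At the edge of the rule, the 67 strong sites with exactly 35 ESC reads had a median of 30 EB reads, and the 60 sites left out with 34 ESC reads and at least 25 EB reads a median of 31. The 82 strong sites with exactly 25 EB reads had a median of 42 ESC reads, and the 72 left out with 24 EB reads and at least 35 ESC reads a median of 40.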

How the data were processed

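The authors deposited aligned 35-base reads of 4 libraries on mouse build mm9, 1 line per read, with MACS peaks and summits called per cell type against its IgG library. The aligner is not given in the sources used here. Each deposited peak carries a score, the p-value of MACS on a log scale, and each deposited summit a signal height that the authors did not scale between libraries; neither was used for a value. No position and strand occurred more than once in a library. The EB IgG file broke off within a line on chromosome X (1 broken line) and the ESC IgG file had 7 broken lines, so counts were made on autosomes, which held 13714772 ESC RAD21, 7740389 EB RAD21, 12602155 ESC IgG and 6929293 EB IgG reads.

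Deposited reads were moved 100 bp in the 3′ direction and counted up to 250 bp from the summit, and log2 ratios took a pseudocount of 1 read. Ratios of counts had exact conditional binomial intervals, shares exact Clopper-Pearson, differences of shares Newcombe and medians order-statistic intervals, which treat sites as independent. CTCF matrices of width 20 were scored against 46393 grid windows. Copies of 20-base words, sampled every 10 bases, were counted on both strands of the autosomes. Weaker shared distal sites met all but a read minimum (5203 sites), and ESC-only (6622) and EB-only (2811) distal sites had no summit of the other cell type within 250 bp. Samples were grouped by their titles. Named sites were the 12 with the largest smaller RPM value, the 5 highest and 5 lowest ratios and up to 3 for each gene list. The full count of the early lineage list is not reported here. The members and lists were chosen with earlier results of these data known. Functions were tested on simulated data with Python 3.11.15, numpy 2.4.6, scipy 1.17.1 and numba 0.67.0. Alternatives changed the scaling, windows, minimums and motif threshold; counts of copies, thymine positions and division by chromosome IgG density were added after the data had been seen.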

Additional observations from a re-analysis of the deposited data

How the results depend on the processing

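No paired analysis was possible because each group held 1 library, and for the same reason no library could be left out. There were 31 alternatives, 4 of them added after the data had been seen. Of the 31, 18 stayed within the interval or, for a count, within 1.5 times of the value reported, and 11 moved beyond it. Counted apart were 1 whose own interval lay above 0 and 1 of changed sign. Both concerned the difference in motif share from weaker shared sites and lay within its interval (-2.23 to 4.12). The number of strong sites was 458 with the ESC minimum raised to the EB minimum in RPM (45 reads), and otherwise 698 to 911. The median log2 ratio kept its sign, at 0.17 when grid windows, whose median was 2 and 1 reads, were set to a ratio of 1, 0.33 and 0.37 in windows of 100 and 500 bp, and 0.44 both with IgG subtracted and without chromosomes 6, 8 and 11. The share with a CTCF match was 91.5% at 1e-04, 24.1% within 75 bp and 27.4% for matches occurring once. Its difference from weaker shared sites was 3.74 points by the fixed consensus, with an interval above 0, and turned to -1.01 points without chromosomes 6, 8 and 11, with an interval that held 0 (-4.60 to 2.75). Median GC was 45.8% within 100 bp, and median ESC IgG reads 6 within 500 bp. The motif offset (48.5 to 49.5 bp) and the convergent share (25% to 30%) stayed within their intervals. The cause of these changes was not tested. At a median of 44 and 32 RAD21 reads, single sites could show only large differences between the cell types.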
